A study of Sus scrofa with 24 samples.

Results

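PPP1R1B encodes DARPP-32, a small protein that binds and blocks protein phosphatase 1 (PP1), one of the main enzymes that strip phosphate from serine and threonine. Every row carrying that gene symbol was taken from a table of transcript levels in pig back muscle, which gave 2 of 22154 transcripts and 1 of 12017 genes and loci. The gene was chosen by its FPKM values in animals of high and low intramuscular fat (IMF), which differed, so that difference is given below as a description, with no test.

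The libraries came from 24 Duroc x Luchuan crossed pigs, and the tissue was longissimus dorsi, a muscle that runs along the spine. The animals were classed in the labels as high IMF (12 pigs) or low IMF (12 pigs), and each library was 1 animal. All belonged to an F1 population of 265 pigs sired by 8 Duroc boars on a total of 112 sows of the Luchuan breed, raised on 1 farm and 1 diet, and were slaughtered at 210 ± 6 days. Muscle was collected 25 minutes after death, and polyA RNA was read as pairs of 150 bases. The fat content, litter and sex of each pig are not used here. The groups are the labelled classes, and how many parents the chosen animals share is not used here either, so n counts animals and not families.

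DARPP-32 acts as a switch. Once protein kinase A (PKA), the kinase activated by cyclic AMP, phosphorylates it, it inhibits PP1, and the phosphatase calcineurin reverses that step; phosphorylation by CDK5 at another site makes it an inhibitor of PKA instead. In rodents, the protein is best known from the dopamine-responsive neurons of the striatum, where it lies downstream of dopamine and adenosine receptors. Adipocytes and muscle fibres both use cAMP, PKA and PP1, in the control of fat breakdown and of glycogen.

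In the deposited table, PPP1R1B lay on the minus strand of chromosome 12 of Sscrofa11.1. ENSSSCT00000019051, listed as a reference transcript, ran from base 22681249 to base 22690612 with 7 exons and 1469 bases. MSTRG.2506.3, classed by the authors as an isoform added by their assembly, ran from base 22681249 to base 22690926 with 6 exons and 1663 bases. RefSeq places the pig gene at 22681244 to 22690978 on the same assembly and lists 4 transcripts of it. Both listed transcripts therefore fall inside the annotated gene, and they share the end at the lower coordinate.

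Relative depth inferred from the table was 36.2 ± 2.43 M reads in high IMF and 36.9 ± 1.28 M reads in low IMF libraries (SD, n = 12 each), with M for mega. Summed FPKM (fragments scaled to transcript length and library size) ran from 351119 to 415572. The share of FPKM held by the top 10 genes was 26.8 ± 2.54% in high IMF and 29.3 ± 3.79% in low IMF muscle. It was lowest in low IMF animal 10 (18.5%) and high IMF animal 7 (20.2%), and both libraries stand apart from the others. Fast fibre markers were listed for 11 of 12 symbols, and their summed level of 10960 to 32658 FPKM in high IMF and 13234 to 28160 FPKM in low IMF animals fitted the labelled tissue.

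PPP1R1B RNA was present at a low level in all 24 muscles and was higher on average in the fatter class. Summed over its 2 transcripts, it measured 3.96, 2.56, 3.37, 3.93, 3.92, 3.72, 2.35, 2.34, 1.31, 3.40, 4.54 and 1.83 FPKM in high IMF animals 1 to 12. In low IMF animals 1 to 12 it measured 0.819, 1.76, 0.594, 1.33, 0.979, 1.32, 1.504, 1.05, 2.16, 3.64, 1.35 and 0.524 FPKM. The groups overlapped: 7 low IMF animals lay above the lowest high IMF animal, while 5 high IMF animals lay above every low IMF animal.

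The mean was 3.10 ± 0.998 FPKM in high IMF and 1.42 ± 0.841 FPKM in low IMF muscle (SD, n = 12 each), a ratio of 2.19. The medians, 3.39 FPKM in high IMF and 1.32 FPKM in low IMF animals, stood in a ratio of 2.56. On the log2(FPKM + 1) scale the limma difference was 0.79 with an SE of 0.16, a scale that understates the change of genes this low. Of the 12 high IMF animals, 11 were above the low IMF median, and 11 of the 12 low IMF animals were below the high IMF median. Because the tissue was sequenced whole, more or fewer cells of a type and more or less RNA per cell cannot be told apart.

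The 2 animals that broke the pattern were high IMF animal 9, at 1.31 FPKM, and low IMF animal 10, at 3.64 FPKM, which ranked 6th of 24. Without low IMF animal 10, the low IMF mean was 1.22 ± 0.492 FPKM (n = 11) and its highest animal was at 2.16 FPKM. High IMF animals above every low IMF animal then numbered 10, and the ratio of means was 2.55. That animal was singled out by its own PPP1R1B level, so a larger difference without it follows from the choice and is no added support.

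**Figure D1:**
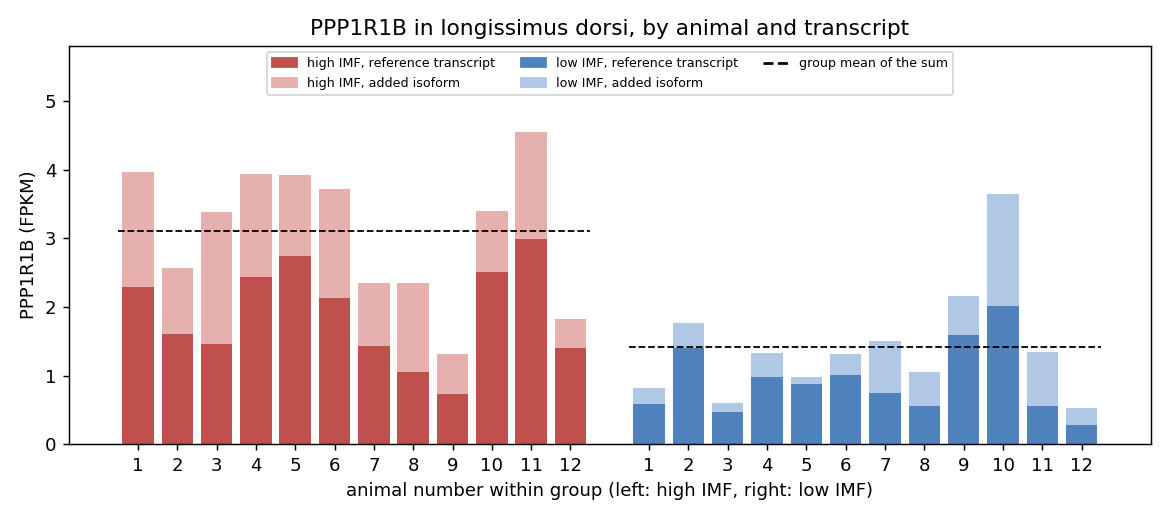
FPKM of PPP1R1B (y axis) in each animal (x axis), high IMF at left and low IMF at right. Dark bars are the reference transcript, pale bars stacked on them the added isoform, and dashed lines the group means of the sum (3.10 FPKM in high IMF, 1.42 FPKM in low IMF). Low IMF animal 10 reaches 3.64 FPKM, among the high IMF animals.

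The level rests on few reads. Mean coverage summed over both transcripts was 16.9 ± 5.87 in high IMF and 7.92 ± 4.95 in low IMF libraries. Expressed as reads of 150 bases, that is 174 ± 59.98 in high IMF animals, with a range of 78.9 to 275, and 81.1 ± 51.3 in low IMF animals, with a range of 30.7 to 222. These read numbers follow from the inferred depth and are relative. With a mean of 2.26 FPKM over all animals, PPP1R1B was above 39.8% of the 11757 genes tested.

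Both transcripts were higher on average in high IMF muscle. The reference transcript measured 1.90 ± 0.714 FPKM in high IMF animals (lowest 0.727, median 1.87, highest 2.99) and 0.921 ± 0.514 FPKM in low IMF animals (lowest 0.286, median 0.809, highest 2.02). It was above the low IMF median in 11 of 12 high IMF animals, with a log2 difference of 0.59 (SE 0.15).

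The added isoform measured 1.21 ± 0.458 FPKM in high IMF animals (lowest 0.425, median 1.23, highest 1.91) and 0.497 ± 0.419 FPKM in low IMF animals (lowest 0.108, median 0.357, highest 1.62). All 12 high IMF animals were above the low IMF median, with a log2 difference of 0.57 (SE 0.14). The ratio of means was 2.06 for the reference transcript and 2.42 for the added isoform. In the authors' deposited table, the fold change runs low over high IMF and was 0.679 for the reference transcript and 0.731 for the added isoform. These are smaller differences than the ratios of means, and they order the transcripts the other way. The method behind the authors' values is not given, so the measures may not be alike.

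The reference transcript made up 60.9 ± 10.2% of PPP1R1B FPKM in high IMF animals (43.4 to 76.7%) and 66.3 ± 14.9% in low IMF animals (40.9 to 88.9%). The ranges overlap over most of their length. The authors' assembly divided shared reads between the transcripts, so the split is less certain than the sum. Across animals, with group means removed, the 2 transcripts had a Pearson r of 0.51 (n = 24, permutation within groups, two-sided, p = 0.0135, adjusted p = 0.0404 over 3 scopes) and a Spearman rho of 0.37 (permutation p = 0.0841, adjusted p = 0.246). Without the 2 animals farthest from the median r was 0.24, so the size of r depends on those animals. Leaving them out also narrows the range of values, and the r without them was not tested.

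Within the groups PPP1R1B varied more than most genes. Its within-group SD on the log2 scale was 0.41, against a median of 0.33 over the genes tested, and 69.4% of them varied less. Among the 500 genes nearest in mean level, 68.2% varied less.

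The first 4 digits of the animal identifier split the pigs into 2 sets, named here by the start of the identifier as DLC1601 and DLC1512, each with 6 high and 6 low IMF animals; what the digits stand for is not stated. PPP1R1B averaged 2.48 ± 1.503 FPKM in the DLC1601 set and 2.04 ± 0.943 FPKM in the DLC1512 set (SD, n = 12 each). The difference of 0.11 (log2, SE 0.17) with IMF class in the limma fit did not pass (p = 0.503, adjusted p = 0.910), and 0 of 11757 genes (0%) passed the adjusted threshold there, with 762 (6.48%) at an unadjusted p under 0.05.

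Higher levels in high IMF animals were seen in both sets. In the DLC1601 set PPP1R1B averaged 3.56 ± 0.929 FPKM in high IMF and 1.40 ± 1.15 FPKM in low IMF animals (log2 difference 1.002, SE 0.23). In the DLC1512 set it averaged 2.65 ± 0.914 FPKM in high IMF and 1.44 ± 0.486 FPKM in low IMF animals (0.57, SE 0.23; SD, n = 6 each). The DLC1601 set exceeded the DLC1512 set in this difference by 0.43 (SE 0.33), which the limma interaction term did not separate from 0 (p = 0.195, adjusted p = 0.998). Without low IMF animal 10, which belongs to the DLC1601 set, it was 0.65 (SE 0.27, limma unadjusted p = 0.0267, adjusted p = 0.999). That animal was singled out by its own PPP1R1B level, the quantity compared here, so this p cannot serve as a test. With any other single animal left out, the limma unadjusted p was 0.0874 or more. No gene passed that test when adjusted (0%), and 387 of 11757 (3.29%) had an unadjusted p under 0.05. Of the 3 pairs of animals that share 9 identifier digits, high IMF animals 4 and 8 measured 3.93 and 2.34 FPKM, low IMF animals 2 and 8 measured 1.76 and 1.05 FPKM, and low IMF animals 6 and 7 measured 1.32 and 1.504 FPKM.

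Once the difference between the classes was removed, animals with more PPP1R1B RNA had more RNA of fat cell markers. For each animal, z scores of 13 adipocyte genes on the log2(FPKM + 1) scale were averaged to give the marker level; among the genes were adiponectin (ADIPOQ), leptin (LEP), the lipid droplet proteins PLIN1, PLIN4, CIDEA and CIDEC, the fatty acid carrier FABP4 and hormone-sensitive lipase (LIPE). With group means removed, PPP1R1B and this level had a Pearson r of 0.76 over 24 animals (permutation within groups, two-sided, p = 2e-05, adjusted p = 0.00066 over 33 relations). Spearman rho was 0.69 (permutation p = 0.0004, adjusted p = 0.0132), and r was 0.66 without the 2 animals farthest from the median.

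Taken by class, r with the adipocyte level was 0.69 in high IMF animals (n = 12, permutation p = 0.0126, adjusted p = 0.109; rho 0.69, adjusted p = 0.194; r 0.73 without the 2 farthest). In low IMF animals r was 0.83 (n = 12, permutation p = 0.00159, adjusted p = 0.0262; rho 0.70, adjusted p = 0.194; r 0.50 without the 2 farthest). The low IMF value rests in part on animal 10. Without it, r in low IMF animals was 0.63 (adjusted permutation p = 0.331), and r over both classes was 0.67 (adjusted permutation p = 0.0340). Low IMF animal 10 ranked 6th of 24 both in PPP1R1B and in the adipocyte level, and its level of 0.56 was the highest of its class.

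The adipocyte list also differed between the IMF classes. All 13 symbols were listed, and 12 of 13 had a positive log2 difference, beside 73.4% of all genes tested. PLIN1 was at -0.09 (limma unadjusted p = 0.864), PLIN4 at 0.19 (limma unadjusted p = 0.596) and CFD at 0.17 (limma unadjusted p = 0.312). ADIG was listed at 0 in 0 high IMF and 4 low IMF libraries and PPARG in 0 high IMF and 1 low IMF library, and no other member was at 0. The summed level was 171 to 348 FPKM (median 231) in high IMF animals and 110 to 266 FPKM (median 149) in low IMF animals. The list level ran from -0.05 to 1.32 in high IMF and from -1.17 to 0.56 in low IMF animals. In the limma test, 2 of 13 passed as higher (background 0.0425%) and 0 as lower (background 0.00851%). At an unadjusted p under 0.05, 10 were higher (background 6.79%). LEP, which passed, and ADIG, among the 10, met the filter of 0.5 FPKM only through the high IMF animals. In low IMF animals they averaged 0.175 and 0.185 FPKM. The list was chosen with earlier results of these data known, so these counts are not independent support. The Schwann cell and nerve list lay the other way. Its summed level was 18.97 to 42.0 FPKM (median 32.1) in high IMF and 29.4 to 89.2 FPKM (median 40.7) in low IMF animals, 0 of 5 tested members were positive, the median log2 difference was -0.41, 1 passed as lower (background 0.00851%) and 2 had an unadjusted p under 0.05 in that direction (background 0.893%). In the other 5 marker lists no member passed the limma test: 4 of 11 fast fibre, 5 of 10 slow fibre, 7 of 9 endothelial, 6 of 7 smooth muscle and pericyte and 4 of 6 macrophage genes were positive. Of these, 1 endothelial gene was higher (background 6.79%) and 1 fast fibre gene lower (background 0.893%) at an unadjusted p under 0.05. The part of fat cell or nerve RNA in the PPP1R1B difference was not tested.

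Single adipocyte genes followed PPP1R1B to unequal degrees. Their group-centred r with it ran from -0.09 for PLIN4 to 0.70 for FABP4, with a median of 0.52, against a median of 0.18 over all genes tested. TUSC5, an adipocyte protein of glucose transporter traffic, was at 0.69, CIDEC at 0.66 and ADIPOQ at 0.65. LEP was at 0.36. LEP and TUSC5 passed the test: LEP averaged 0.888 ± 0.469 FPKM in high IMF and 0.175 ± 0.0828 FPKM in low IMF animals (limma adjusted p = 0.00697), and TUSC5 averaged 7.27 ± 3.36 FPKM in high IMF and 2.46 ± 1.83 FPKM in low IMF animals (limma adjusted p = 0.0138). ADIPOQ, with the largest log2 difference of the 13 (1.32, SE 0.26), averaged 27.1 ± 11.98 FPKM in high IMF and 10.3 ± 5.72 FPKM in low IMF animals, with 12 of 12 high IMF animals above the low IMF median. It missed the threshold (limma adjusted p = 0.0544) and passed it under 10 of 35 alternatives, among them TMM scaling (limma adjusted p = 0.0315) and leaving out low IMF animal 10 (limma adjusted p = 0.00683), over a range of adjusted p from 0.00683 to 0.213.

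**Figure D2:**
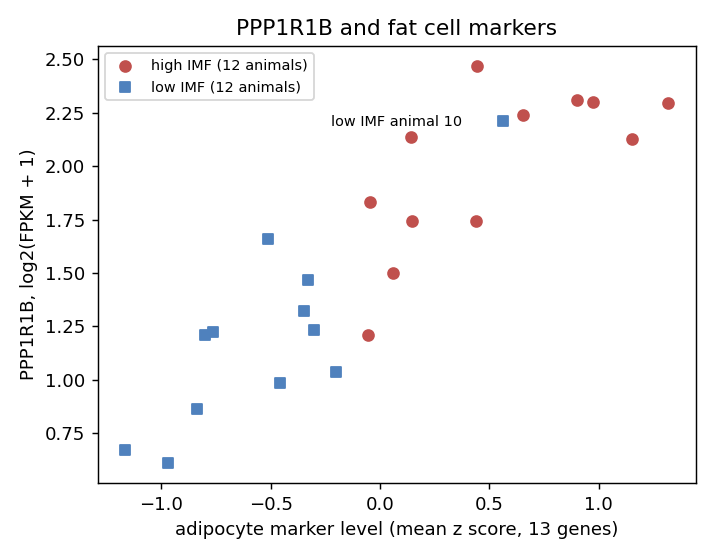
PPP1R1B on the log2(FPKM + 1) scale (y axis) against the adipocyte marker level, the mean z score of 13 genes (x axis), with 1 point per animal, high IMF as circles and low IMF as squares. Points run from lower left to upper right in both groups, and low IMF animal 10 lies among the high IMF animals.

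None of the other 10 measures passed with PPP1R1B. With group means removed, r was 0.46 with macrophage markers (permutation p = 0.0324, adjusted p = 0.183), 0.35 with smooth muscle and pericyte markers, -0.03 with endothelial markers and 0.05 with Schwann cell and nerve markers. It was -0.40 with fast fibre and -0.25 with slow fibre markers. Summed FPKM gave -0.16. The share of FPKM taken by the 10 most abundant genes gave -0.41 over both classes, 0.15 in high IMF and -0.74 in low IMF animals (adjusted permutation p = 0.109). Without low IMF animal 10, r was 0.25 with macrophage markers, 0.22 with smooth muscle and pericyte markers, -0.10 with fast fibre markers and -0.02 with the top-10 share. Under TMM scaling it was 0.32 with macrophage, 0.11 with smooth muscle and pericyte and -0.35 with endothelial markers. Over all 30 other relations the lowest adjusted p was 0.109 for Pearson r and 0.349 for Spearman rho. A p above the threshold does not show that PPP1R1B is unrelated to these measures at 12 animals per class.

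**Figure D3:**
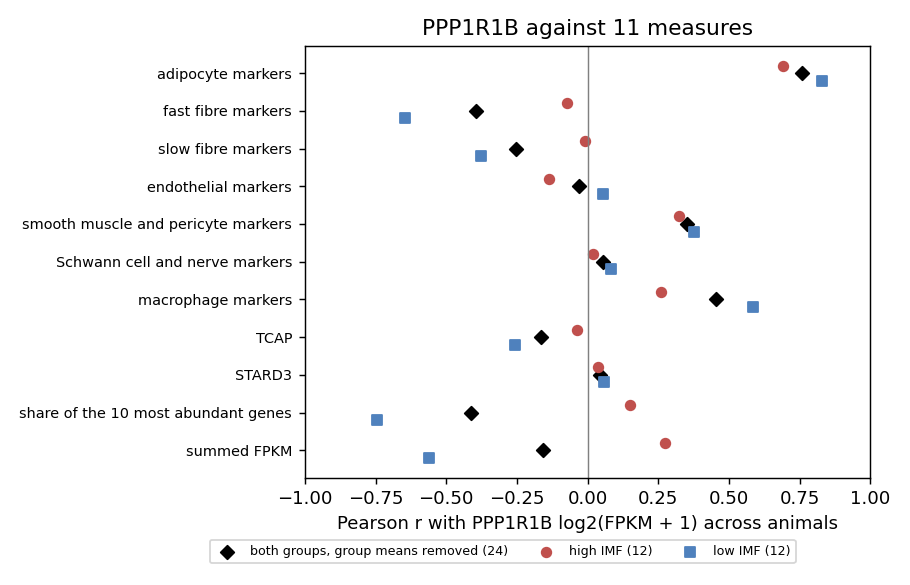
Pearson r (x axis) between PPP1R1B and each of 11 measures (rows) across animals: both groups with group means removed (diamonds, 24 animals), high IMF (circles, 12) and low IMF (squares, 12). Adipocyte markers stand at the right in all 3 (0.76 for both groups, 0.69 in high IMF and 0.83 in low IMF), and several other measures differ in sign or size between the groups.

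The genes most like PPP1R1B were taken as those of highest group-centred r over 24 animals, among 8011 genes with a symbol and a mean of at least 1 FPKM. These were CEBPA (0.76), S100A11 (0.75), ALDOC (0.75), ADIRF (0.75), MGST1 (0.74), SRGN (0.74), HK1 (0.73), SEC61A1 (0.73), ZNF655 (0.73) and RBP4 (0.73). The median over the 8011 genes was 0.19 and the 99th percentile 0.61. CEBPA encodes a transcription factor of adipocyte differentiation, ALDOC an aldolase, HK1 a hexokinase and RBP4 a retinol carrier made in liver and fat.

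CEBPA had an r of 0.74 in high IMF and 0.77 in low IMF animals. It averaged 9.40 ± 2.70 FPKM in high IMF and 5.17 ± 2.78 FPKM in low IMF muscle. RBP4 had the highest Spearman rho of the 10, at 0.83. It averaged 1.47 ± 0.740 FPKM in high IMF and 0.690 ± 0.417 FPKM in low IMF animals. It therefore met the likeness filter of 1 FPKM only through the high IMF animals. ZNF655, which encodes a zinc finger protein, averaged 2.07 ± 0.711 FPKM in high IMF and 2.25 ± 0.693 FPKM in low IMF animals (log2 difference -0.10, SE 0.14). Toward the other end stood SH3BGR (-0.71), ERLEC1 (-0.59), SEMA3B (-0.55) and U12 (-0.53). SH3BGR had an r of -0.44 in high IMF and -0.85 in low IMF animals and of -0.49 under TMM scaling, where it ranked 7948 of 8011. U12 had an r of -0.16 in high IMF and -0.71 in low IMF animals. All points share libraries with PPP1R1B, and these values carry no test.

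Of the genes that act on or beside DARPP-32, none passed in either direction. The 8 lists held 122 symbols, of which 86 were in the table and 84 were tested; 0 passed the adjusted limma test (background 0.051% in either direction). At an unadjusted p under 0.05, 8 were higher (background 6.79%) and 1 was lower (background 0.893%), which is near the background. Their median log2 difference was 0.06, beside 0.08 for all genes tested, and 57 of 84 were positive, beside 73.4% of all genes. Under scaling by the trimmed mean of M values (TMM), which centres the libraries on the bulk of their genes, 36 of 84 were positive, beside 49.7% of all genes. At an unadjusted p under 0.05 in that fit, 3 of the 84 were higher and 3 lower. Over all genes tested (11757 in the main fit), 325 were higher and 271 lower there.

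The receptors that control DARPP-32 in neurons were largely outside the table. DRD1, DRD2, DRD3, DRD4 and DRD5, the adenosine receptor gene ADORA2A, and GNAL are not analysed here. GNAL encodes a G protein subunit that couples some of these receptors to cyclase in the striatum. Of 8 receptors and G proteins tested, 4 were positive, beside 73.4% of all genes. GNAI1, a subunit that inhibits adenylyl cyclase, averaged 1.51 ± 0.464 FPKM in high IMF and 1.12 ± 0.269 FPKM in low IMF animals (limma log2 difference 0.24, p = 0.0188, adjusted p = 0.560). The adenosine receptor gene ADORA1 averaged 3.33 ± 2.78 FPKM in high IMF and 9.49 ± 10.7 FPKM in low IMF animals (-0.85, adjusted p = 0.704). GNB1 and GNAI3, other G protein subunits, had log2 differences of -0.49 and 0.11.

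Of 7 adenylyl cyclases, which make cAMP, 5 were positive and 2 were higher at an unadjusted p under 0.05. Over all genes tested, 73.4% were positive and 6.79% were higher at that threshold. Under TMM scaling 3 of the 7 were positive, beside 49.7% of all genes. There 1 of the 7 was higher at that threshold, beside 325 of all genes tested (11757 in the main fit). ADCY5, the main striatal form, averaged 1.19 ± 0.229 FPKM in high IMF and 0.904 ± 0.374 FPKM in low IMF animals (limma log2 difference 0.22, adjusted p = 0.582). ADCY9 averaged 9.93 ± 1.92 FPKM in high IMF and 8.33 ± 1.75 FPKM in low IMF animals (0.23, adjusted p = 0.627). ADCY3 and ADCY6 were at -0.07 and -0.09. The cyclases' group-centred r with PPP1R1B ran from -0.15 to 0.53, the last for ADCY5.

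Phosphodiesterases, which break cAMP down, gave 7 of 10 tested genes positive, beside 73.4% of all genes. None had an unadjusted p under 0.05 (background 6.79% higher and 0.893% lower). Under TMM scaling 4 of the 10 were positive, beside 49.7% of all genes. There 0 were higher and 1, PDE7B, was lower at that threshold (log2 difference -0.39, limma unadjusted p = 0.0325). Over all genes tested (11757 in the main fit), 325 were higher and 271 lower under that scaling. PDE7B averaged 3.15 ± 1.40 FPKM in high IMF and 3.92 ± 1.03 FPKM in low IMF animals (limma log2 difference -0.30, adjusted p = 0.704). PDE8A, PDE2A and PDE3A were at 0.19, 0.16 and 0.12. PDE3A, among the 7 positive genes, averaged 0.602 FPKM in high IMF and 0.479 FPKM in low IMF animals. It therefore met the filter of 0.5 FPKM only through the high IMF animals.

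The PKA list had the highest median of the 8, at 0.30, with 6 of 8 members positive and 2 higher at an unadjusted p under 0.05. Over all genes tested the median was 0.08, 73.4% were positive and 6.79% were higher at that threshold. Under TMM scaling 6 of 8 members were positive, beside 49.7% of all genes, with 1 higher and 1 lower at that threshold. Over all genes tested (11757 in the main fit), 325 were higher and 271 lower under that scaling. PRKAR2B, a regulatory subunit of PKA abundant in adipose tissue and brain, averaged 2.53 ± 0.930 FPKM in high IMF and 1.49 ± 0.545 FPKM in low IMF animals (limma log2 difference 0.49, SE 0.13, p = 0.000868, adjusted p = 0.233). All 12 high IMF animals were above its low IMF median, and its group-centred r with PPP1R1B was 0.56. Leaving out low IMF animal 10, which was singled out by its PPP1R1B level, gave PRKAR2B a log2 difference of 0.55, which passed the adjusted threshold. That was the only pass: 1 of 24 fits with an animal left out, and 0 of 10 other alternatives.

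PKIG, an inhibitor of PKA, averaged 6.95 ± 1.999 FPKM in high IMF and 5.31 ± 1.53 FPKM in low IMF animals (limma log2 difference 0.34, adjusted p = 0.586). The catalytic subunit gene PRKACA averaged 31.6 ± 14.6 FPKM in high IMF and 24.8 ± 14.5 FPKM in low IMF animals (0.46, SE 0.40). PRKACB, the second catalytic subunit gene, was at 0.10 and PRKAR2A, a regulatory subunit gene, at 0.33.

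CDK5, the kinase that turns DARPP-32 into a PKA inhibitor, averaged 3.76 ± 0.824 FPKM in high IMF and 2.93 ± 0.964 FPKM in low IMF animals (limma log2 difference 0.29, SE 0.12, p = 0.0243, adjusted p = 0.586). Under TMM scaling its log2 difference was 0.21 (limma unadjusted p = 0.0652). Its group-centred r with PPP1R1B was 0.33. The casein kinase genes CSNK2A1 and CSNK1D, whose products also phosphorylate DARPP-32, were at 0.13 and 0.11, and the cGMP-dependent kinase gene PRKG1 was at -0.27.

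Among 13 genes for subunits of calcineurin and PP2A, phosphatases that act on DARPP-32, 8 were positive, beside 73.4% of all genes. Not every subunit is known to act on it. PPP3CB, a catalytic subunit of calcineurin, averaged 12.2 ± 8.09 FPKM in high IMF and 16.3 ± 4.36 FPKM in low IMF animals (limma log2 difference -0.64, p = 0.0388, adjusted p = 0.627). PPP2R5D, the PP2A subunit through which PKA acts on DARPP-32 in rodent neurons, averaged 6.29 ± 0.700 FPKM in high IMF and 5.30 ± 0.994 FPKM in low IMF animals (0.22, p = 0.0183, adjusted p = 0.557). Under TMM scaling PPP2R5D was at 0.13 (limma unadjusted p = 0.136) and PPP3CB at -0.74 (limma unadjusted p = 0.0144). PPP2R1B and PPP2R5A, other PP2A subunit genes, were at 0.22 and 0.18.

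The catalytic subunits of PP1, which DARPP-32 inhibits, had higher levels than PPP1R1B in FPKM, which is per length, and showed small differences. PPP1CA averaged 14.4 ± 2.15 FPKM in high IMF and 13.5 ± 3.76 FPKM in low IMF animals (log2 difference 0.12). PPP1CB averaged 53.4 ± 13.3 FPKM in high IMF and 49.6 ± 8.51 FPKM in low IMF animals (0.09). PPP1CC averaged 45.1 ± 7.20 FPKM in high IMF and 42.2 ± 4.69 FPKM in low IMF animals (0.09). PPP1CB and PPP1CC turned negative under TMM scaling, at -0.02 and -0.03, so no direction is given for them.

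PPP1R1A, inhibitor 1, is the close relative of DARPP-32 that PKA also activates, and it is the form known from muscle. It averaged 1424 ± 341 FPKM in high IMF and 1385 ± 355 FPKM in low IMF animals (limma log2 difference 0.05, SE 0.15, adjusted p = 0.961), and -0.07 under TMM scaling. On the FPKM scale, which is per length, its level was far above that of PPP1R1B in both classes. Its group-centred r with PPP1R1B was -0.27.

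Of 30 PP1 inhibitors and regulatory subunits tested, 20 were positive (73.4% of all genes) and 1 was higher at an unadjusted p under 0.05 (background 6.79%). That was PPP1R11, inhibitor 3, at 12.8 ± 1.93 FPKM in high IMF and 10.6 ± 2.64 FPKM in low IMF animals (limma log2 difference 0.26, adjusted p = 0.584). Under TMM scaling it was at 0.15 (limma unadjusted p = 0.0534). PPP1R27, PPP1R18 and PPP1R37 were at 0.29, 0.17 and 0.13. PPP1R18, among the 20, averaged 0.644 FPKM in high IMF and 0.457 FPKM in low IMF animals. It therefore met the filter of 0.5 FPKM only through the high IMF animals.

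**Figure D4:**
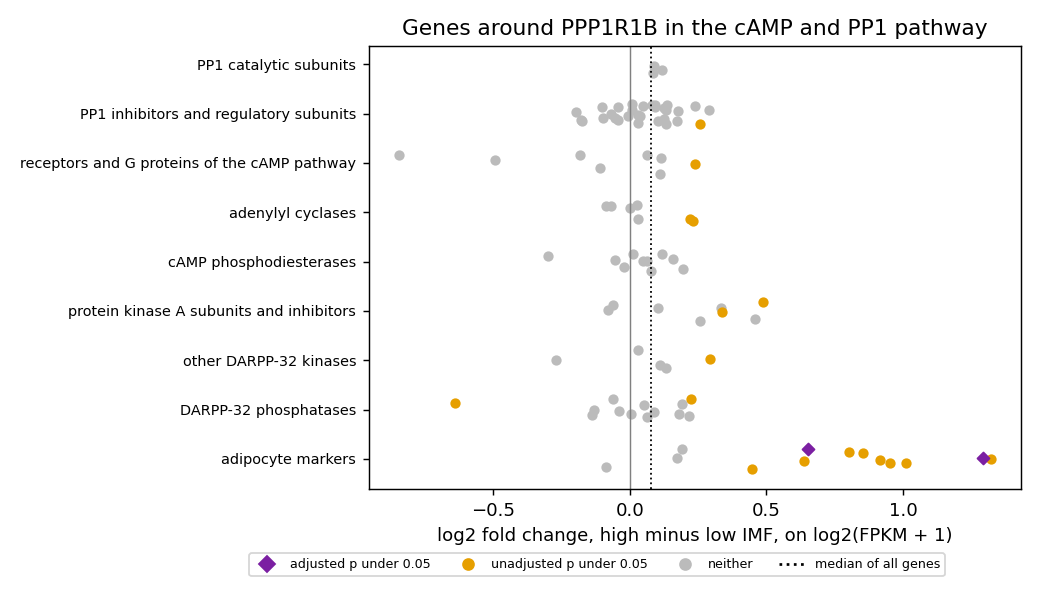
Log2 difference, high minus low IMF, on log2(FPKM + 1) (x axis) of each tested gene in the 8 pathway lists and the adipocyte list (rows). Diamonds passed the adjusted limma test, orange circles had an unadjusted p under 0.05, grey circles neither, and the dotted line is the median of all genes (0.08). No pathway gene is a diamond, and the adipocyte row reaches furthest to the right.

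None of the genes around PPP1R1B on chromosome 12 passed the test. Within 500 kb of its span, 19 genes were listed and tested; 0 passed the adjusted limma test (background 0.051%), 2 were higher at an unadjusted p under 0.05 (background 6.79%) and 0 were lower. Of the 19, 12 were positive (73.4% of all genes), and 9 under TMM scaling (49.7% of all genes). Under TMM scaling 1 of the 19 was higher and 1 lower at an unadjusted p under 0.05. Over all genes tested (11757 in the main fit), 325 were higher and 271 lower under that scaling. STARD3, a cholesterol transfer protein gene that lies 0.441 kb away in the table, averaged 4.29 ± 1.13 FPKM in high IMF and 3.79 ± 0.558 FPKM in low IMF animals (limma log2 difference 0.12, SE 0.11, p = 0.255, adjusted p = 0.800). Its group-centred r with PPP1R1B was 0.04.

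TCAP, which encodes the sarcomere protein telethonin, lay 28.2 kb away and averaged 445 ± 164 FPKM in high IMF and 349 ± 174 FPKM in low IMF animals (limma log2 difference 0.40, SE 0.24, adjusted p = 0.704). Its r with PPP1R1B was -0.16. PNMT and PGAP3, the next on that side, were at -0.18 and -0.07. On the other side CDK12, MSTRG.2509, RPL19 and MSTRG.2499 were at 0.21, 0.26, 0.05 and -0.01.

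The 2 neighbours with an unadjusted p under 0.05, named after their values were seen, were MIEN1 and ORMDL3. ORMDL3, a regulator of sphingolipid synthesis 263.5 kb away, averaged 21.7 ± 4.84 FPKM in high IMF and 14.7 ± 4.49 FPKM in low IMF animals (limma log2 difference 0.56, SE 0.15, p = 0.0012, adjusted p = 0.241). Its group-centred r with PPP1R1B was 0.64, the highest among the 19. MIEN1, 91.0 kb away, was at 0.24 (limma p = 0.0239, adjusted p = 0.584). Under TMM scaling MIEN1 was at 0.13 (limma unadjusted p = 0.124) and ORMDL3 at 0.45 (limma unadjusted p = 0.0023). The 19 values of r had a median of 0.24.

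**Figure D5:**
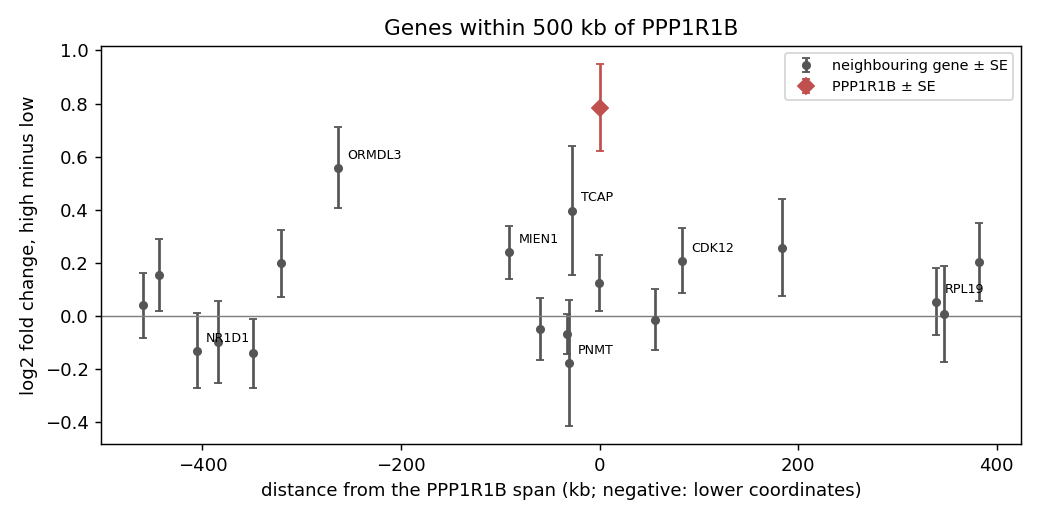
Log2 difference, high minus low IMF (y axis), of the 19 genes within 500 kb of PPP1R1B against their distance from it (x axis, kb), with bars of 1 SE. PPP1R1B, the diamond at 0, is at 0.79, and ORMDL3 at 0.56 is the highest neighbour.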

How the data were processed

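The authors deposited 1 table with 1 FPKM value per assembled transcript and animal. The unit was inferred from the values and is not named in the header. Sscrofa11.1, StringTie 1.3.3 and HISAT2 2.0.5 appear in the submitters' processing notes, with no roles. Per the file headers, the authors' table also holds a fold change (a ratio, low over high IMF by the FPKM means in 328 of 328 transcripts with an authors' p-value under 0.01), 3 columns of q-values and a p-value. Their method is not given in the sources used.

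FPKM was summed over the transcripts of a gene. Every listed transcript was above 0 in at least 19 of 24 libraries, and genes expressed in fewer pigs are not analysed here. The 11757 genes averaging 0.5 FPKM or more were fitted as log2(FPKM + 1) with limma 3.58.1 in R 4.3.3, with trend and robust moderation and Benjamini-Hochberg adjustment at 0.05; the script was tested on simulated data. Relations used permutation with 100000 resamples in Python 3.11.15 (scipy 1.17.1). Relative depth came from the step of coverage in FPKM times length, taken as whole within 0.05 base. Intervals from counts were not formed, since the table holds no counts.

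Genes were named by rule: up to 4 per list by smallest p, PP1 and PKA catalytic genes, PPP1R1A, CDK5, the 4 nearest neighbours on each side, and the 10 highest and 5 lowest in likeness, of which 1 is not reported here. The gene, the lists and the rule were chosen with earlier results of these data known. Of the 7 marker lists, that of Schwann cells and nerve is not described gene by gene here. Alternatives were TMM and upper-quartile scaling, a pseudocount of 0.1, other filters, limma settings, covariates and left-out animals.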

Additional observations from a re-analysis of the deposited data

Results flagged for a closer look

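PPP1R1B stood at 3.64 FPKM in low IMF animal 10, far from the other 5 low IMF animals of the DLC1601 set, whose highest value was 1.35 FPKM. The animals form 4 groups of 6, and each was examined for 4 overlapping quantities (the sum, both transcripts and their share); this sum was the only value to stand out. Chance gives about 1 in 20 groups for a single quantity. The same library had the lowest share of FPKM in the 10 most abundant genes (18.5%) and a TMM factor of 1.35, and after TMM scaling its PPP1R1B level was 2.70 FPKM. Its adipocyte level ranked 6th of 24. The part of these values in the PPP1R1B level was not tested.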

How the results depend on the processing

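The PPP1R1B difference stayed positive under every alternative run, from 0.72 (upper-quartile scaling) to 1.17 (pseudocount 0.1), and from 0.73 to 0.88 with animals left out in turn. A pseudocount of 0.1 gave 1.03 for the reference transcript and 1.29 for the added isoform. A mean of at least 5 FPKM removed PPP1R1B, so it gave no value. The DLC1601 minus DLC1512 difference was -0.00162 without animals 7 (high IMF) and 10 (low IMF), a pair chosen after seeing the data for its low top-10 share, and 0.0221 to 0.175 with single animals left out. The difference between the sets in the IMF effect was 0.31 to 0.65 with animals left out, 0.63 without the pair (SE 0.28, limma unadjusted p = 0.0379) and 0.68 with a pseudocount of 0.1 (SE 0.49). TMM scaling moved the median of all genes from 0.08 to -0.00116 and the positive share to 49.7%, with 325 genes higher and 271 lower at an unadjusted p under 0.05. Of the pathway genes 36 of 84 were then positive (3 higher and 3 lower), and of the neighbours 9 of 19 (1 and 1); the adipocyte median was 0.69 and ORMDL3 0.45.

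Pathway genes called higher numbered 0 to 1 with animals left out, the 1 being PRKAR2B without low IMF animal 10. Of 1548 values for 45 single genes, 1521 kept their sign, 27 changed it, 13 calls were gained (10 of them for ADIPOQ, 2 for CIDEA and 1 for PRKAR2B) and 0 lost. Under TMM and upper-quartile scaling the values were -0.0230 and -0.0320 for PPP1CB, -0.0257 and -0.0346 for PPP1CC, -0.0666 and -0.0758 for PPP1R1A, and -0.0592 and -0.0684 for RPL19; CSNK1D was at -0.00555 under upper-quartile scaling. Array weights gave 0.0459 for MSTRG.2499 and -0.0308 for PPP1R1A. Without the pair, ADCY6 was at 0.0861, MSTRG.2499 at 0.0189 and PPP1R1A at -0.00932. PRKACB was at -0.14 with a pseudocount of 0.1. With animals left out, ADCY6 ran from -0.195 to 0.0162, MSTRG.2499 from -0.0488 to 0.0344, PPP1R1A from -0.00340 to 0.104 and PRKACB from -0.0443 to 0.227.

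The adipocyte relation over both classes was 0.67 to 0.80 with animals left out, 0.70 under TMM scaling (adjusted permutation p = 0.00990) and 0.67 without the pair (adjusted permutation p = 0.0389). In low IMF animals it was 0.73 under TMM scaling and 0.63 without the pair, no longer past the threshold, and 0.63 to 0.88 with animals left out; in high IMF animals it was 0.64 to 0.77. With group means removed, the Schwann cell and nerve list gave -0.137 and STARD3 -0.0491 under TMM scaling, and -0.00718 and -0.0130 without the pair. Without the 2 farthest animals, fast fibre markers gave -0.0681, the top-10 share -0.173 over both classes and -0.207 in high IMF, where it was -0.0327 without the pair. With animals left out, fast fibre markers ran from -0.488 to -0.0982, the top-10 share from -0.536 to -0.0158 over both classes and from -0.856 to -0.326 in low IMF; low IMF animal 10 gave the value nearest 0 in all 3. TMM scaling moved the median r of all genes with PPP1R1B from 0.18 to 0.00299, and that of the adipocyte genes from 0.52 to 0.41. Of the 10 genes most like PPP1R1B, 8 remained among the 10 under TMM scaling, 5 by Spearman rho and 4 (without low IMF animal 9) to 10 with animals left out. The cause of these shifts was not tested. No paired analysis was possible because replicate numbers were given in accession order and pair no animals. The low level of PPP1R1B, from few reads, limits the split between its transcripts.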
